A study of Mus musculus and Homo sapiens with 30 samples.

Results

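The genes described here are 10 imprinted growth genes of the mouse, Peg10, Mest, Sgce, Peg3, Plagl1, Grb10, Cdkn1c, H19, Igf2 and Dlk1, out of 56980 gene IDs in the deposited mouse table, of which 52073 had a symbol. They were chosen as a list, and the list was selected on measured values of 2 of them: in NMuMG cells Peg10 was lower with lean secretome and Mest was higher with obese secretome. Peg10 and Mest are therefore given in NMuMG as a description with no test. Of the other 8 genes, 6 passed the filter on low counts in NMuMG and have the test of the fit over all genes. Plagl1 and H19 did not pass it and have no test. Within E0771 only Cdkn1c passed and was tested.

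The study measured poly(A) RNA in 18 mouse libraries of 2 lines, E0771, a mouse mammary cancer line, and NMuMG, a mouse mammary gland epithelial line, with 3 libraries for each line in each of 3 media. After 36 h of growth the cells were treated for 16 h, either with standard medium (control) or with standard medium mixed with 50% secretome, the medium conditioned by inguinal adipocytes, labelled lean or obese. The standard medium of both lines was DMEM with 10% FBS. For NMuMG the labels also give 10 mcg/ml insulin and 4.5 g/L glucose, and for E0771 they state neither. The line and its medium therefore cannot be told apart. Human SkBr3 libraries of the series were not analysed here.

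Imprinted genes are transcribed mainly from either the maternal or the paternal copy, which is set by DNA methylation laid down in the germ line. Many of them act on fetal and placental growth: paternally expressed members such as Igf2, Peg3 and Mest are known to promote growth or maternal care, and maternally expressed members such as Cdkn1c, Grb10 and H19 are known to restrain it. They lie in clusters that share a control region, and most are turned down after birth. Allele-specific reads were not analysed here, so every value is the sum of both copies.

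The 10 genes lie on 5 chromosomes (GENCODE M21, GRCm38). Peg10, Sgce and Mest are on chromosome 6, Peg3, Cdkn1c, H19 and Igf2 on 7, Plagl1 on 10, Grb10 on 11 and Dlk1 on 12. Peg10 and Sgce are read in opposite directions from starts 98 bases apart. Mest shares 912 exonic bases, 23.1% of its exonic length, with Copg2 on the opposite strand, and Cdkn1c shares 30.7% with an antisense model that had 4 reads in all 18 libraries. Igf2 shares 62.8% of its exonic length with a read-through model on the same strand that had no read, so reads of that shared stretch may have been left unassigned.

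Promoter windows, 250 bases before to 50 bases after a transcript start, were found in RefSeq (GRCm38.p6) for 6 of the 10 genes. The windows of Mest and Peg3 are shown because these genes changed level between media and, at the same time, were at 6 reads or fewer in the other line. CG dinucleotides, where DNA methylation sits, are in capitals, each window is written 5′ to 3′ on the gene's strand, and the upstream and downstream starts of Mest come first.
Mest upstream start, chr6:30733256-30733555 (+): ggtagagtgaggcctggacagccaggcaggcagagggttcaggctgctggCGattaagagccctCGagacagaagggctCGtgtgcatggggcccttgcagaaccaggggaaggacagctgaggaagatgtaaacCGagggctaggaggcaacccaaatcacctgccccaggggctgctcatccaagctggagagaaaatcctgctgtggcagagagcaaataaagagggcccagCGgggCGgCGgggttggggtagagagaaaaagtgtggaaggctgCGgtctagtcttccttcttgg
Mest downstream start, chr6:30737803-30738102 (+): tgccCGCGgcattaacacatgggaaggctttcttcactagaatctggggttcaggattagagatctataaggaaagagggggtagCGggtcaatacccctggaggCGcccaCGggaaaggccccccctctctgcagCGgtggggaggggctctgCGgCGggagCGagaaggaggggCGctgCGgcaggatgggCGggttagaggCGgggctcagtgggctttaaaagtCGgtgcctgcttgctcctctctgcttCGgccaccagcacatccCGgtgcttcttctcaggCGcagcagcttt
Peg3, chr7:6730370-6730669 (-): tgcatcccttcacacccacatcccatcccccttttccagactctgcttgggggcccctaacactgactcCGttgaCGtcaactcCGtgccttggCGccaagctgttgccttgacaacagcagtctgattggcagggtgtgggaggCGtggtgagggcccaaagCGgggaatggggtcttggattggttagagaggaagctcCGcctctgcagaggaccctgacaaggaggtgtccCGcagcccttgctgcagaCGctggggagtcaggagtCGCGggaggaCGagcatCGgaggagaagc
The Mest windows held 8 and 17 CG dinucleotides and the Peg3 window held 13, against a median of 7 over 32851 windows of the same length, whose quartiles were 3 and 20. A search of both strands for the YY1 core CCATNTT and the antioxidant response element core TGACNNNGC found neither in these 3 windows. Of the 12 windows of the 6 genes, 1 window of Igf2 held both and 1 window of Grb10 held the first. Over all windows, 16.1% held the first and 12.4% the second.

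Depth was similar in both lines. The libraries held 22929035 to 31094119 counts in E0771 and 23966897 to 29686456 in NMuMG, and 3 counts summed over the 9 libraries of a line correspond to 0.0124 and 0.0125 CPM, the unit used for levels here, which is reads scaled to library size. The line labels were checked against markers: the defining epithelial genes Krt18 and Krt19 had no read in E0771 control libraries, while Krt8 stood at 255 ± 4.97 CPM (SD, n = 3) and the fibroblast gene Col1a1 at a mean of 687 CPM. In NMuMG control libraries Krt18 stood at 2515 ± 75.6 CPM and Cdh1 at 541 ± 15.8 CPM, while the epithelial genes Cldn3 and Cldn7 had no read and Epcam stood at 2.19 CPM. The mesenchymal list of 7 genes, led by Vim and Fn1, summed to 3555 to 3710 CPM there and to 3193 to 3315 CPM in E0771 control libraries. The adipocyte marker list of 8 genes summed to at most 1.61 CPM in any E0771 library, and Lep had no read in either line. In bulk RNA, fewer cells with a transcript and less of it per cell cannot be told apart.

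Most of the list was present in NMuMG and nearly absent from E0771. Of the 10 genes, 8 passed the filter on low counts in NMuMG and 1, Cdkn1c, passed it in E0771. Over all genes with a symbol, 28.2% passed in NMuMG and 26% in E0771. The list was chosen on values in NMuMG, so its higher share there is not read as a result. Peg3, a zinc finger protein, had 112217 reads in NMuMG and none in E0771, at least 37850-fold higher in CPM when E0771 is set at 3 counts over its 9 libraries. Among genes with no read in E0771 it had the third highest level in NMuMG, after Fn1 and Krt19. Sgce, epsilon-sarcoglycan, had 789 reads in NMuMG and none in E0771, at least 266-fold higher on the same floor.

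Peg10, a retrotransposon-derived gene needed for the placenta, had 1310 reads in NMuMG and 1 in E0771, a CPM ratio of 1326 with a 95% counting interval of 238 to 52400. Mest, an endoplasmic reticulum protein of the alpha/beta hydrolase fold, had 1385 reads in NMuMG and 6 in E0771. Its ratio was 234 (107 to 638). Copg2, which overlaps Mest on the other strand and is named here after its values were seen, stood at 99.2, 72.5 and 97.6 CPM in the 3 E0771 media, while Mest had 0 to 3 reads in each of those libraries.

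The rarer transcripts were also counted mostly in NMuMG. Igf2, the fetal growth factor, had 111 reads in NMuMG and 1 in E0771, and Grb10, an adaptor that dampens insulin and IGF1 receptor signalling, had 149 and 4, all 4 in a single lean library. Dlk1, a membrane protein that restrains fat cell differentiation, had 56 reads in NMuMG and none in E0771. Plagl1, a zinc finger transcription factor, had 21 and none. H19, a noncoding RNA processed to a microRNA, had 6 reads in each line, too few to compare.

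Cdkn1c, the cyclin-dependent kinase inhibitor p57, was the exception. It had 784 reads in E0771 and 234 in NMuMG, and in control medium it was lower in NMuMG by a log2 fold change of -1.43 (SE 0.183, edgeR quasi-likelihood adjusted p = 3.13e-09). That contrast called 80.5% of all genes tested, so a difference between the lines is common.

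**Figure D1:**
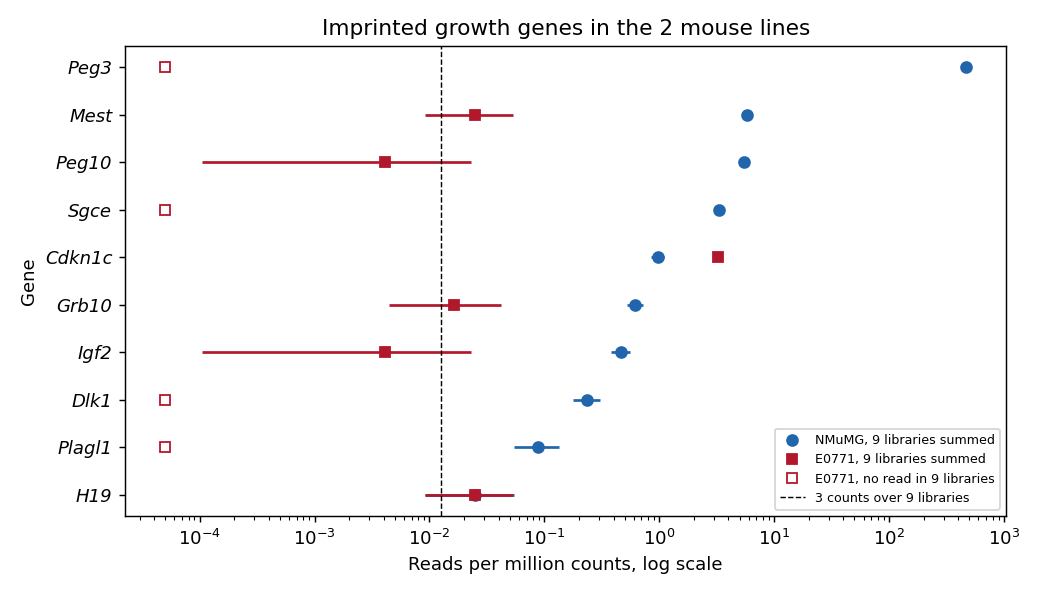
Reads of each gene summed over the 9 libraries of a line, in CPM on a log axis, with 95% Poisson intervals as bars that cover counting error only. Open squares are E0771 genes with no read, drawn at an arbitrary place left of the dashed line, which marks 3 counts over 9 libraries. Blue NMuMG points lie to the right of the E0771 squares for 8 genes, Cdkn1c is reversed and the points of H19 coincide. The distance to an open square has no meaning.

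How many genes present in NMuMG were absent from E0771 is given as counts with no test. Of the 8 members that passed in NMuMG, 5 (62.5%) had at most 3 reads in E0771: Peg10, Sgce, Peg3, Igf2 and Dlk1. Of 24 neighbours in the same imprinted clusters that passed, 6 (25%) did, namely Ppp1r9a, Usp29, Zim1, Phactr2, Ddc and Dio3. Of 28 other imprinted genes it was 4 (14.3%), namely Snrpn, Ndn, Peg12 and Sfmbt2, and of all 15014 genes it was 1201 (8%). In reverse, 0 of 1 member, 0 of 15 neighbours and 0 of 24 other imprinted genes that passed in E0771 had at most 3 reads in NMuMG. Over all 13813 genes that passed in E0771 it was 400 (2.9%). The list was chosen on NMuMG values of Peg10 and Mest, and passing was decided in NMuMG, so the share of the members is not read as a result. The genes named here were picked for this pattern, after their values were seen.

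Within NMuMG in control medium, the order of levels per kilobase of exon was led by Peg3 at 37.2 CPM per kb. Peg10 followed at 1.04, Mest at 0.875, Cdkn1c at 0.656 and Sgce at 0.31. Igf2 stood at 0.114, Grb10 at 0.0784, Dlk1 at 0.0553 and Plagl1 at 0.0153 CPM per kb. The libraries of neighbours in this order overlapped for Grb10 and Dlk1 and for Plagl1 and H19. With lean secretome Mest stood at 2.01 CPM per kb, and Peg10 at 0.337 overlapped Sgce at 0.319 and Cdkn1c at 0.287. With obese secretome Mest stood at 1.54 and Peg10 at 1.1 CPM per kb.

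Peg10 stood lower with lean secretome in NMuMG than in either other medium. Its level in the 3 control libraries was 7.19, 6.76 and 6.76 CPM, in the lean libraries 2.27, 2.49 and 1.98 CPM, and in the obese libraries 6.43, 7.79 and 7.79 CPM. All lean libraries were below all others, and the obese libraries spread around the controls. The mean was 6.90 ± 0.246 (SD, n = 3) in control, 2.25 ± 0.253 in lean and 7.34 ± 0.783 in obese medium. The log2 fold change was -1.62 for lean over control, 0.09 for obese over control and -1.70 for lean over obese. Over all genes that contrast of lean over control called 38.2%, a figure from which nothing is read for Peg10, since it was chosen for this difference. Marker lists of other cell types moved in the same NMuMG libraries. The adipocyte list, with 3 of 8 genes over the floor, summed to 1.74 to 2.12 CPM in control, 2.97 to 3.69 in lean and 1.12 to 1.86 in obese libraries, with Lep at 0 reads. The lean sum was higher through Cidec, at 0.549 CPM in control and 2.02 in lean, while Plin4 stood at 1.28 and 1.31 CPM and Adipoq had 0 and 3 reads. The myoepithelial list, with 4 of 5 genes over the floor, summed to 28.7 to 32.4, 11.9 to 13.7 and 19.4 to 22.5 CPM in the same order. Its members differed in direction: Acta2 went from 18.1 CPM in control to 3.66 in lean and Tagln from 12.0 to 2.73, while Krt5 went from 0.226 to 5.97 CPM. The mesenchymal list, with 7 of 7 genes over the floor, summed to 3555 to 3710 CPM in control, 2987 to 3135 in lean and 3581 to 3733 in obese libraries. The lean sum was lower through Fn1, at 1539 CPM in control and 953 in lean. Vim stood at 1776 and 1772 CPM and Cdh2 at 256 and 273 CPM. The fibroblast list, low in this line, summed to 5.578 to 6.078, 3.265 to 3.46 and 3.875 to 4.804 CPM in the same order. Its lean sum was lower mostly through Col1a1, at 4.77 CPM in control and 2.54 in lean. The epithelial list summed to 7071 to 7503, 7809 to 8029 and 6736 to 7115 CPM. Krt8 went from 3434 CPM in control to 3816 in lean and Krt18 from 2515 to 2775, while Cdh1 stood at 541 and 522. The part of these lists in the values of Peg10, Mest and Cdkn1c was not tested.

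Sgce, which starts 98 bases from Peg10 and is likewise paternally expressed, stood at overlapping levels in the 3 media. Its control libraries stood at 3.36, 3.67 and 2.85 CPM, its lean libraries at 3.51, 3.53 and 3.11 CPM and its obese libraries at 3.34, 3.02 and 3.19 CPM. No medium stood apart. Its log2 fold change was 0.04 for lean over control (SE 0.153, edgeR adjusted p = 0.855), -0.04 for obese over control (adjusted p = 0.931) and 0.09 for lean over obese (adjusted p = 0.704). The 95% interval of the first of these, from its standard error, ran from -0.33 to 0.42 on the log2 scale.

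The other genes around Peg10, named for their place in the region, differed in direction with lean secretome in NMuMG. In map order, Casd1, a sialic acid acetyltransferase next to Sgce, had a log2 fold change of -0.25 (edgeR adjusted p = 0.0495, close to the threshold of 0.05). Ppp1r9a, which follows Peg10 and encodes the actin-binding protein neurabin, had -0.01. The paraoxonase Pon3 rose by 0.26 (adjusted p = 0.00214), and the paraoxonase Pon2 beside it had -0.02. Asb4, a SOCS-box protein that is maternally expressed, rose from 0.535 CPM in control to 1.41 CPM in lean and stood at 0.547 CPM in obese libraries. Lean over control gave it 1.39 on the log2 scale (SE 0.306, adjusted p = 0.000402). Peg10 and Asb4 thus differed from control in opposite directions within the same region.

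**Figure D2:**
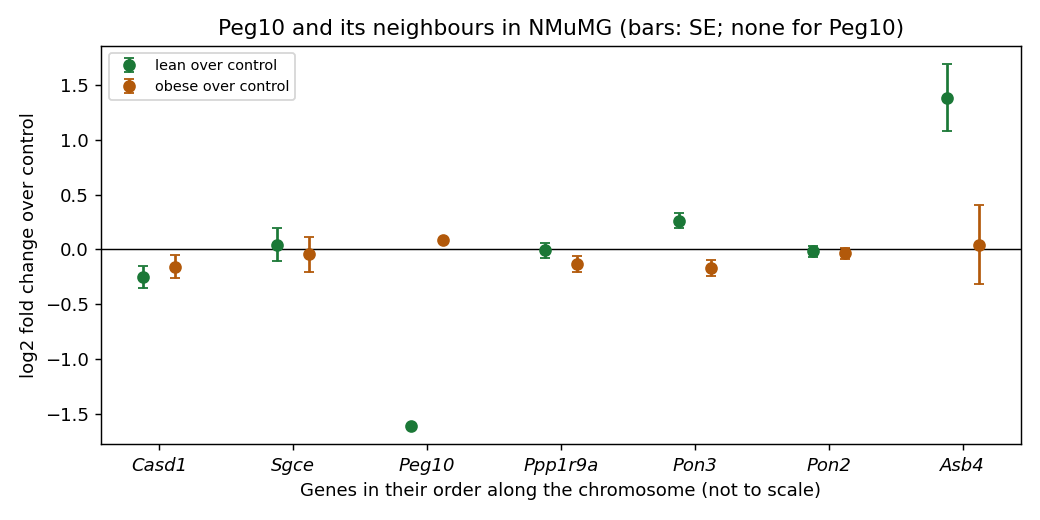
Log2 fold change in NMuMG of lean over control (green) and obese over control (orange) for the tested genes around Peg10 in map order, not to genomic scale, with standard errors as bars, none for Peg10, which is described only. With lean secretome Peg10 is lowest at -1.62, Asb4 is highest at 1.39 and Sgce lies at 0.04.

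Mest stood higher with both secretomes than in control medium in NMuMG. The control libraries stood at 3.43, 3.52 and 3.41 CPM, the lean libraries at 7.16, 8.76 and 7.81 CPM, and the obese libraries at 6.43, 5.05 and 6.69 CPM. Every lean and obese library was above every control library, and every lean library was above every obese one. The mean was 3.45 ± 0.0553 (SD, n = 3) in control, 7.91 ± 0.801 in lean and 6.06 ± 0.879 in obese medium. The log2 fold change was 1.20 for lean over control, 0.81 for obese over control and 0.38 for lean over obese. These are descriptions, since the obese value chose the gene and the contrasts share libraries. Copg2 stood at 72.4, 77.5 and 69.7 CPM in the control, lean and obese media of NMuMG. In the obese over control contrast 5.01% of all genes were called.

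**Figure D3:**
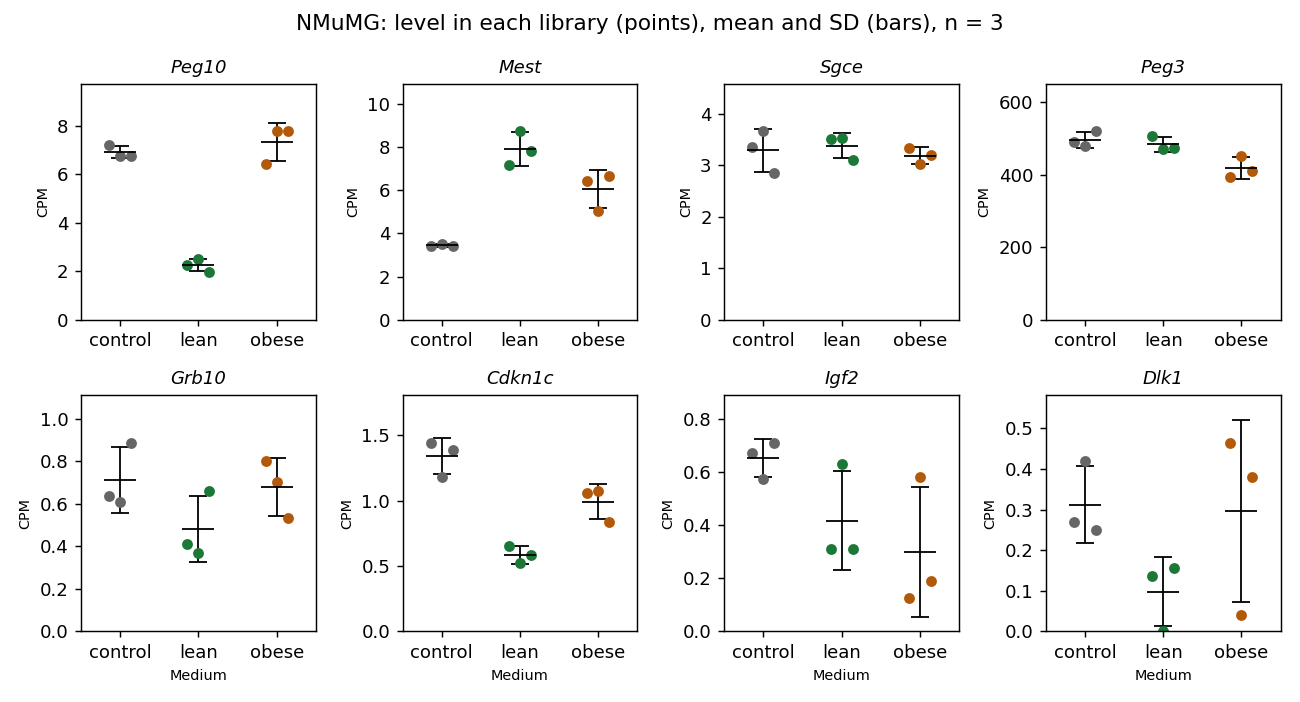
CPM of the 8 genes that passed the filter in NMuMG, on linear axes from 0 with a scale of their own, for 3 libraries (points) in each medium with mean and SD (bars). The lean points of Peg10 and Cdkn1c lie below the other media, those of Mest lie above them, and the obese points of Peg3 lie below the others.

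Peg3 fell with obese secretome and not detectably with lean. Its control libraries stood at 489, 479 and 520 CPM, its lean libraries at 505, 470 and 473 CPM and its obese libraries at 394, 451 and 409 CPM. Every obese library was below every control and every lean library, and control and lean overlapped. The log2 fold change was -0.25 for obese over control (SE 0.0451, edgeR adjusted p = 0.00244) and 0.21 for lean over obese (SE 0.0451, adjusted p = 0.00127). For lean over control it was -0.04 (adjusted p = 0.55). Of the 6 tested members other than Peg10 and Mest, Peg3 was the 1 called for obese over control, beside 5.01% of all genes, and the 1 called for lean over obese, beside 35%.

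Cdkn1c fell with lean secretome in both lines. In E0771 its control libraries stood at 3.77, 3.79 and 4.34 CPM, its lean libraries at 1.82, 2.10 and 2.14 CPM and its obese libraries at 3.94, 4.33 and 3.37 CPM. All lean libraries were below all others, and control and obese overlapped. The log2 fold change in E0771 was -0.97 for lean over control (SE 0.166, edgeR adjusted p = 2.35e-05), -0.03 for obese over control (adjusted p = 0.957) and -0.93 for lean over obese (SE 0.166, adjusted p = 4.02e-05). It was the 1 member of 10 that could be tested there, beside 56.3% of all genes called for lean over control, 2.61% for obese over control and 52.7% for lean over obese. In the obese over control contrast neither edgeR nor DESeq2 called it, and its unadjusted p was 0.838. The fibroblast marker list, with 5 of 7 genes over the floor, summed to 873 to 956 CPM in E0771 control, 378 to 402 in lean and 638 to 851 in obese libraries, mostly through Col1a1. The mesenchymal list summed to 3193 to 3315, 2073 to 2301 and 3009 to 3123 CPM in the same order, and the myoepithelial list to 18.2 to 20.1, 28.6 to 35.7 and 17.6 to 18.0 CPM. The lean mesenchymal sum was lower mostly through Vim, at 3040 CPM in control and 2018 in lean. Twist1 stood at 41.48 and 32.35 CPM and Zeb2 at 76.86 and 80.95 CPM. The lean myoepithelial sum was higher mostly through Acta2, at 18.82 CPM in control and 29.55 in lean. Krt14 stood at 0.143 and 1.26 CPM and Tagln at 0.157 and 0.212 CPM. Krt5 had 0 and 15 reads and Trp63 had 4 and 2. The part of these lists in the Cdkn1c difference was not tested.

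In NMuMG the Cdkn1c control libraries stood at 1.44, 1.18 and 1.39 CPM, the lean libraries at 0.654, 0.52 and 0.583 CPM and the obese libraries at 1.06, 1.08 and 0.836 CPM. These levels rest on few reads: 43, 31 and 39 in control, 19, 14 and 15 in lean and 25, 26 and 22 in obese libraries. The media did not overlap and were ordered control, obese, lean. The log2 fold change was -1.19 for lean over control (SE 0.286, adjusted p = 0.00109). It was -0.44 for obese over control (adjusted p = 0.434) and -0.74 for lean over obese (adjusted p = 0.0555), neither of which passed. Among the 6 tested members it was the 1 called for lean over control, beside 38.2% of all genes.

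The difference between the lines in the Cdkn1c response to lean secretome was -0.25 on the log2 scale, NMuMG minus E0771 (SE 0.301, edgeR adjusted p = 0.596). For obese over control it was -0.42 (adjusted p = 0.563) and for lean over obese 0.17 (adjusted p = 0.773). None was called by edgeR or DESeq2, and the unadjusted p of each was at or above 0.138. The shares of all genes called in these contrasts were 34.5%, 1.69% and 34.2%. A p that misses the threshold does not show that the lines responded alike.

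**Figure D4:**
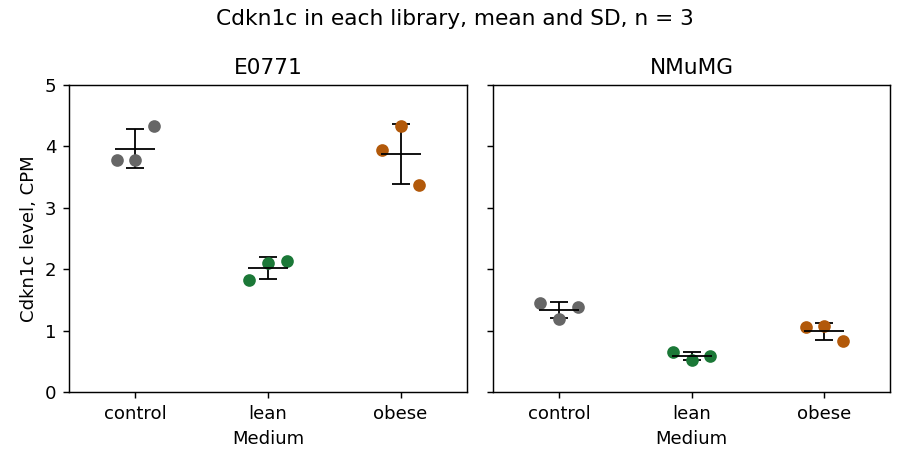
Cdkn1c level in each library of E0771 and NMuMG by medium (points, CPM on a linear axis from 0; bars are mean and SD, n = 3). The lean libraries lie lowest in both lines, from 1.82 to 2.14 CPM in E0771 and from 0.52 to 0.654 CPM in NMuMG.

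Grb10, Igf2 and Dlk1 were too low in NMuMG for more than counts. Grb10 had 19, 16 and 25 reads in control, 12, 10 and 17 in lean and 19, 17 and 14 in obese libraries. The groups overlapped, with a log2 fold change of -0.57 for lean over control (adjusted p = 0.219).

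Igf2 had 20, 15 and 20 reads in control, 9, 17 and 8 in lean and 3, 14 and 5 in obese libraries. In CPM the groups overlapped at obese replicate 2, which stood at 0.58 against 0.573 in the lowest control. Obese over control gave -1.12 on the log2 scale, with an unadjusted p of 0.0179 and an adjusted p of 0.166 in edgeR. Without obese replicate 2, which had 14 reads, the adjusted p was 0.0226.

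Dlk1 had 8, 11 and 7 reads in control, 4, 0 and 4 in lean and 11, 1 and 10 in obese libraries. Lean lay below control in every library, with a log2 fold change of -1.62 (adjusted p = 0.068), and lean over obese had -1.56 (adjusted p = 0.0959). Without obese replicate 2 the adjusted p values were 0.0442 and 0.0186, so 1 library decides whether Dlk1 is called. Plagl1 had 0 to 7 reads and H19 0 to 3 in any NMuMG library, and neither passed the filter.

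Neighbours in the members' imprinted clusters were described from a list of 39 genes. In NMuMG 24 were tested, and with lean over control 8 were higher and 5 lower, beside 19.1% of all genes called in each direction, with a median log2 fold change of 0.05 against -0.005 over all genes. The largest were Ddc, dopa decarboxylase next to Grb10, at 1.77 (SE 0.209, adjusted p = 0.000248), and Cobl, an actin nucleator beside it, at 1.69 (adjusted p = 6.14e-11). Phlda2, a placental growth repressor in the Cdkn1c cluster, rose by 1.30 (adjusted p = 4.01e-08), while Cdkn1c itself fell. Dio3, the deiodinase that inactivates thyroid hormone and lies at the far end of the Dlk1 cluster, fell from 29.2 CPM in control to 12.8 in lean and 18.7 in obese libraries. Its log2 fold change was -1.19 for lean over control (SE 0.0736, adjusted p = 4.89e-15) and -0.64 for obese over control (adjusted p = 1.33e-07).

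In E0771 15 neighbours were tested, and 2 were higher and 10 lower with lean over control, beside 27.3% and 29% of all genes, with a median of -0.34 against -0.01. Casd1 fell by 0.86 (adjusted p = 4.91e-11) and Cars, the cysteinyl tRNA synthetase of the Cdkn1c cluster, fell by 0.77 (adjusted p = 2.85e-13).

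Receptors, ligand-binding proteins and mRNA-binding proteins linked to Igf2 were described from a list of 14 genes. The list, called Igf2 partners here, also holds the related ligand Igf1. Of 11 partners tested in NMuMG, 7 were higher and 3 lower with lean over control, beside 19.1% of all genes called in each direction, with a median of 0.21 against -0.005 over all genes. Igfbp3, which binds IGFs in the extracellular space, rose from 107 to 184 CPM with lean secretome, a log2 fold change of 0.77 (adjusted p = 4.29e-16), and had no read in E0771. Igfbp5 fell by 0.85 (adjusted p = 0.0046).

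In E0771 8 of these partners were tested, and 3 were higher and 4 lower with lean over control, beside 27.3% and 29% of all genes, with a median of -0.14 against -0.01. Igf2r, the receptor that clears IGF2 and is itself imprinted, fell from 46.6 to 24.5 CPM, a log2 fold change of -0.93 (adjusted p = 1.23e-11). Igfbp4 fell from 903 to 515 CPM, a log2 fold change of -0.81 (adjusted p = 2.53e-13). The mRNA-binding protein Igf2bp2 rose by 0.61 (adjusted p = 1.51e-11).

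Other imprinted genes outside these clusters were called in both directions. Igf2r is on this list and on that of the Igf2 partners, and is counted in both. In NMuMG 8 of 28 were higher and 4 lower with lean over control, beside 19.1% of all genes in each direction, with a median of -0.03. In E0771 8 of 24 were higher and 9 lower, beside 27.3% and 29%, with a median of -0.07. In E0771 Trappc9, a trafficking complex subunit, fell by 0.76 (adjusted p = 1.67e-09), and Peg13, a noncoding RNA within Trappc9, fell by 0.60 (adjusted p = 5.41e-05). Slc38a4 rose there by 1.075 (adjusted p = 0.01147), on 32 reads in control and 77 in lean libraries. Its call was lost in 3 of 14 alternatives.

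Among factors that set or keep imprints, 1 of 18 was called higher and 10 lower with lean secretome in NMuMG, beside 19.1% of all genes in each direction, with a median of -0.11 against -0.005 over all genes. The 11 calls became 6 without lean replicate 3 and 7 without control replicate 2. In E0771 3 of 20 were higher and 8 lower, beside 27.3% and 29% of all genes, with a median of -0.10 against -0.01. Dnmt3l, a cofactor of DNA methyltransferases known from germ cells, rose in E0771 by 1.61 (SE 0.191, adjusted p = 1.32e-07). In NMuMG it had no read.

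Few genes of these 4 lists were called for obese over control, where 2.34% of all genes were called higher and 2.66% lower in NMuMG, and 1.21% and 1.4% in E0771. In NMuMG edgeR called 1 of 24 neighbours (Dio3, lower), 1 of 28 other imprinted genes (lower) and 3 of 11 Igf2 partners (2 higher, 1 lower). It called 0 of 18 imprint factors there, with 2 at an unadjusted p under 0.05 and 0 called by DESeq2. In E0771 it called 1 of 15 neighbours, 1 of 8 Igf2 partners and 2 of 20 imprint factors, all lower. It called 0 of 24 other imprinted genes there, with 4 at an unadjusted p under 0.05 and 0 called by DESeq2. Each count stayed between 0 and 4 under every alternative tried, and all except that of the Igf2 partners in NMuMG moved by over 1.5 times, or from or to 0, when 1 library was left out.

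Genes whose log2 CPM ran most like a member's over the 9 NMuMG libraries are given as a description, since all points share the same 9 libraries and 3 media. For Peg10 these were Sae1 (r = 0.997), Larp7 (0.996), H3f3b (0.995), Add2 (0.994) and Lgals1 (0.994), among 10678 genes. Their levels moved far less than that of Peg10: Sae1, for example, stood at 212, 166 and 211 CPM in control, lean and obese media. For Mest they were Hsp90aa1 (0.982), Antxr2 (0.982), Sulf2 (0.979), Actb (0.978) and Igfbp3 (0.976). For Cdkn1c they were Cxxc4 (0.981), Arid2 (0.977), Sytl2 (0.977), Kdelc2 (0.975) and Tgfbrap1 (0.971). Among the members, Cdkn1c had r = 0.856 with Peg10 and -0.926 with Mest, and Sgce had -0.261 with Peg10. Over the 9 E0771 libraries the genes most like Cdkn1c were Sept9 (0.988), Lmnb1 (0.988), Flrt2 (0.987), Rpl35a (0.987) and Fis1 (0.986), none of which was among the 5 in NMuMG.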

How the data were processed

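Poly(A) RNA of 18 mouse libraries (9 E0771, 9 NMuMG) was prepared with a directional kit and sequenced as paired 150 bp reads, per the labels' protocols. The authors deposited raw counts per Ensembl gene. The submitters' processing notes list cutadapt 1.16, STAR 2.7.9a, featureCounts 1.6.3 and GRCm39; the strand setting of the counting and the annotation release were not given in the sources used here. Symbols, exon lengths and overlaps came from GENCODE M21 on GRCm38, and symbols covered 99.68% of the counts. SkBr3 libraries were not analysed here, since no human gene names were in the reference used, so the planned SkBr3 comparisons were not run.

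Each line was fitted with its 3 media in edgeR 4.0.16 under R 4.3.3: filterByExpr (13813 genes kept in E0771, 15014 in NMuMG), TMM factors (0.987 to 1.01), and robust quasi-likelihood F tests, adjusted by Benjamini-Hochberg over all genes within a contrast and called under 0.05. Differences between the lines were interaction terms in 1 fit of 18 libraries (16529 genes). CPM were counts divided by the library total times TMM factor, except sums over a line, which used raw totals. Log2 CPM for correlations used a prior count of 2. Intervals for summed reads are exact Poisson or binomial at 95% and, like the floor of 3 counts, cover counting error only.

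The labels do not say that replicates were separate cultures, so p-values measure the spread between these samples, which may be technical. Between replicates of a group, chi-square divided by its degrees of freedom was 2.27 to 8.37 under counting error alone, and no library was a copy of another. DESeq2 1.42.0, other filters and scalings, a replicate block and leaving out each library were tried as alternatives. The pipeline was tested on simulated data.

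The members, the gene lists and the tests were chosen with earlier results of these data known. All 10 members are named. From each other list, called genes with an absolute log2 fold change of at least 0.5 could be named, at most the 5 largest per contrast, and the 5 genes most correlated with Peg10, Mest and Cdkn1c among those whose log2 CPM averaged 2 or more. Genes around Peg10, markers and genes named for their absence from E0771 fall outside that rule.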

Additional observations from a re-analysis of the deposited data

Results flagged for a closer look

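Each gene here passed the edgeR test of the difference between the lines in the response to secretome, NMuMG minus E0771 on the log2 scale. They are listed because they passed, and most had a called change of at least 0.5 within a line in the same libraries. For lean over control the test called 11 of 25 neighbours with a positive and 1 with a negative difference. It called 6 and 3 of 29 other imprinted genes, 3 and 1 of 11 Igf2 partners and 3 and 3 of 20 imprint factors. These totals include genes without reads in E0771, such as Ddc and Dio3, for which a difference in response cannot be estimated well. The fit of E0771 alone tested 15 neighbours, 24 other imprinted genes, 8 Igf2 partners and 20 imprint factors. In the contrast of lean over control, the difference was 1.15 for Igf2r, 0.92 for Phlda2, 0.81 for Trappc9 and 0.60 for Igfbp4. It was 0.58 for Casd1, 0.56 for Cars, 0.52 for Copg2 and 0.52 for Peg13, -0.28 for Igf2bp2 and -0.89 for Dnmt3b. In the contrast of lean over obese, it was 1.66 for Slc22a18, 1.11 for Igf2r, 0.95 for Phlda2, 0.91 for Trappc9 and 0.60 for Igfbp4. It was 0.59 for Casd1, 0.57 for Copg2, 0.53 for Cars, 0.47 for Peg13 and -0.85 for Dnmt3b. Adjusted p ran from 2.61e-15 for Igf2r to 0.00478 for Peg13, in contrasts that called 34.5% and 34.2% of all genes. Igf2r had -0.93 in E0771 and 0.25 in NMuMG for lean over control, and Slc22a18, a transporter of the Cdkn1c cluster, had -0.65 and 1.03 for lean over obese. Both contrasts share the lean libraries.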

How the results depend on the processing

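The calls of Cdkn1c for lean over control in both lines and for lean over obese in E0771, and of Peg3 for obese over control and lean over obese, held in 14 of 14 alternatives each, with adjusted p of at most 0.0276. Leaving out 1 library, the number of members called in NMuMG ranged from 1 to 2 in each contrast; it was 2 without obese replicate 2. Leaving out 1 library also turned the sign of values that were not called: Cdkn1c for obese over control in E0771 ranged from -0.11 to 0.0633. Sgce ranged from -0.0502 to 0.13 for lean over control and from -0.14 to 0.0345 for obese over control in NMuMG, Grb10 from -0.21 to 0.11 and Dlk1 from -0.51 to 0.44 for obese over control. Same-numbered replicates were not treated as paired in the main fits. Their deviations correlated from -0.0942 to 0.11 in E0771 and from -0.0285 to 0.025 in NMuMG. Of the samples, 5 of 9 and 4 of 9 correlated best with their own number. With 3 replicates per group these values cannot exclude a pairing. With the replicate block 1 member was called in each NMuMG contrast, and the genes called for lean over control went from 7770 to 7636 in E0771 and from 5731 to 5652 in NMuMG. Over all genes, the calls for obese over control, 360 in E0771 and 752 in NMuMG, were 626 in E0771 without the low-count filter. They ranged from 79 (without control replicate 1) to 601 (without lean replicate 3) in E0771 and from 384 (without control replicate 1) to 893 (without obese replicate 2) in NMuMG. The cause of these changes was not tested. Dnmt3b in NMuMG lost its call for lean over control in 2 of 14 alternatives and for lean over obese in 5 of 14, with adjusted p of up to 0.153. Depth limits Grb10, Igf2, Dlk1, Plagl1 and H19, with at most 25 reads in any library. Cdkn1c in NMuMG was also low, with 31 to 43 reads in control and 14 to 19 in lean libraries.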
